A study of Mus musculus with 4 samples.

Results

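The regions described here are the CTCF summits within 10 kb of chemosensory receptor genes in 4 mouse embryonic stem cell (mESC) lines. A summit is the highest point of a peak in the authors' lists. Members were all summits on the autosomes other than chromosome 11 that lay within 10 kb of a RefSeq gene whose symbol starts with Olfr, Vmn1r, Vmn2r or Taar. There were 482 such summits of 64499 on the 18 autosomes used in the Del(CBS8-10) library, 400 of 56237 in the Inv library, 572 of 85864 in the Inv:Del(CBS7-10) library and 505 of 81054 in the Ins library. The full lists held 74555, 66365, 99177 and 93969 peaks in that order.

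CTCF was profiled by CUT&RUN, in which an antibody guides a nuclease to cut free the DNA around a bound protein. All lines had a deletion of HoxB (Del) on 1 copy of chromosome 11. The other copy lacked the stretch from Hoxb9 to Hoxb13, Del(i9-13), and had received an insertion of CBS5-10, a row of CTCF binding sites. This array lacked CBS8-10 in the Del(CBS8-10) line, was inverted in the Inv line, was inverted and lacked CBS7-10 in the Inv:Del(CBS7-10) line, and was complete and uninverted in the Ins line. All 4 lines share the Del and Del(i9-13) alleles, and no line without an edited chromosome 11 was used here. Each genotype had 1 library, so no genotype was tested against another, and the 4 libraries served as 4 repeated measurements of the same regions. The labels do not say whether a line is a single clone. The Inv list was the shortest and the Inv:Del(CBS7-10) list the longest, so each density is read against the same library's autosomes.

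Chemosensory receptors are the largest gene superfamily of the mouse. Olfr genes encode the odorant receptors of the main olfactory epithelium, Vmn1r and Vmn2r genes the pheromone receptors of the vomeronasal organ, and Taar genes the trace amine-associated receptors, which detect volatile amines. They lie in tandem clusters grown by gene duplication, hold many pseudogenes, and are transcribed in sensory neurons, each of which uses very few of them. CTCF binds a long DNA motif with its zinc fingers, stops loop extrusion by cohesin and marks many domain boundaries.

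Of 2089 receptor genes in the RefSeq table, 1947 were used: 1315 Olfr, 366 Vmn1r, 250 Vmn2r and 16 Taar genes. Of the others, 104 lay on chromosome 11, 30 on X, Y or unplaced sequence, and 8 had coordinates before the first summit of any list and were left out. Those used comprised 1386 protein-coding genes and 560 pseudogenes. Their territory, the sequence within 10 kb of any of them, covered 37.3 Mb, or 1.63% of the autosomes used, and held 0.747%, 0.711%, 0.666% and 0.623% of the summits in the Del(CBS8-10), Inv, Inv:Del(CBS7-10) and Ins libraries.

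Sequences are printed here for promoter windows, from 250 bases before to 50 bases after a gene's start. Vmn2r29, a vomeronasal receptor gene on chromosome 7, has 2 annotated starts, and the upstream window was the only receptor promoter window to hold a summit in all 4 libraries. Both windows are printed on the gene's strand, which is the minus strand, from RefSeq (GRCm38.p6), at chr7:7278240-7278539 and chr7:7247279-7247578. Capitals mark a match to the core of the CTCF motif, which reads CCA, any 2 bases, AG, any 2 bases and GGC, and was sought on both strands.
Vmn2r29 upstream window: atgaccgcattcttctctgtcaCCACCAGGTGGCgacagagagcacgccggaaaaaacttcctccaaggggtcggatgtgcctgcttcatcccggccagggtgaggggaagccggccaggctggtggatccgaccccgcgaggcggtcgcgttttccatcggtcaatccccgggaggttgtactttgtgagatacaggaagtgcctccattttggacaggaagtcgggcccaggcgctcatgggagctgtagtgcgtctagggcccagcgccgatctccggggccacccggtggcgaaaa
Vmn2r29 downstream window: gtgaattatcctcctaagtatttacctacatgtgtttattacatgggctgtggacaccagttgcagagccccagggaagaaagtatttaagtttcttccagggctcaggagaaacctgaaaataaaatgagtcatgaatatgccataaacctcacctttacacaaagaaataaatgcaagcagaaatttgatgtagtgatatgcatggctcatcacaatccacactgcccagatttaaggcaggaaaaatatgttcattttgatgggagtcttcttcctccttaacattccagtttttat
The upstream window was 62.3% G or C and had 23 CpG dinucleotides, unlike most receptor windows, whose medians were 35.7% and 1. The downstream window was 38.3% G or C with 0 CpG and no match, and held no summit in any library. Over a global alignment, 162 of 341 columns were identical (47.5%). Against the window of Olfr1532-ps1, an odorant receptor pseudogene, the upstream window was 45.8% and the downstream window 49.3% identical. The 47.5% is thus near the value between windows of different families. The match lay at bases 23 to 34 of the upstream window, and its centre was 195.5 to 204.5 bases from the summits, which lay at bases 233, 228, 224 and 229 in the Del(CBS8-10), Inv, Inv:Del(CBS7-10) and Ins libraries.

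The other 3 receptor promoter windows with a match held no summit. Each match is printed with 12 bases on either side, on the strand of the gene (minus for all), at chr7:103882295-103882330 for Olfr66, chr2:89752935-89752970 for Olfr1253 and chr17:20564912-20564947 for Vmn2r109.
Olfr66: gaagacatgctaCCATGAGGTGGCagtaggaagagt
Olfr1253: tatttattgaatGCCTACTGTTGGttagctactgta
Vmn2r109: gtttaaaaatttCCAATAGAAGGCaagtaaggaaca
The Olfr66 match was the closest to a summit, which lay 9055, 9090, 7668 and 9113 bp away in the Del(CBS8-10), Inv, Inv:Del(CBS7-10) and Ins libraries. For Olfr1253, whose match reads on the opposite strand, the nearest summit was 46.8, 150.2, 46.9 and 46.8 kb away in the same order. For Vmn2r109 it was 166, 166, 103 and 103 kb away.

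The first question was how densely CTCF occupied receptor territory. Summits were sparse there in every library. The density was 12.9, 10.7, 15.3 and 13.5 summits per Mb of receptor territory in the Del(CBS8-10), Inv, Inv:Del(CBS7-10) and Ins libraries, against 28.2, 24.6, 37.6 and 35.5 per Mb of all autosomes used. In each library the exact Poisson 95% interval for receptor territory, which covers counting error only, lay wholly below the autosome value. The highest upper bound was 16.6 per Mb, in the Inv:Del(CBS7-10) library. Receptor genes have many near-identical copies, and no source used here says how reads matching several places were counted, so their part in the low summit counts was not tested.

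The ratio to the autosomes averaged 0.421 ± 0.033 (SD, n = 4 libraries), and the mean log2 ratio was −1.25 ± 0.11. It was below 0 in 4 of 4 libraries (two-sided exact sign-flip permutation test, p = 0.13, and 0.13 after Benjamini-Hochberg adjustment over 4 tests), which is the smallest p that 4 libraries allow. Against the territory of all other genes, which held 35.6, 31.2, 47.5 and 45.5 summits per Mb, the ratio averaged 0.332 ± 0.028. The ratio was lower for stronger peaks in each library. Among peaks with a −log10 q of at least 10, the receptor density was 0.375, 0.407, 0.394 and 0.365 of the autosome density, and among weaker peaks 0.564, 0.475, 0.440 and 0.412. No test was made of that difference.

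Density was low throughout the 10 kb. Within the receptor genes themselves it was 14.1, 9.92, 16.7 and 15.0 summits per Mb. Just inside the limit, at 8 to 10 kb from a gene, it was 15.1, 11.3, 15.8 and 13.1, and just outside, at 10 to 12 kb, 14.3, 12.8, 19.2 and 16.5. At 20 to 50 kb it was 28.7, 25.6, 37.6 and 35.7, close to the autosome values. Of 882 summit positions pooled over the libraries, 204 (23.1%) lay inside a receptor gene, and receptor genes make up 21.1% of the territory.

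**Figure D1:**
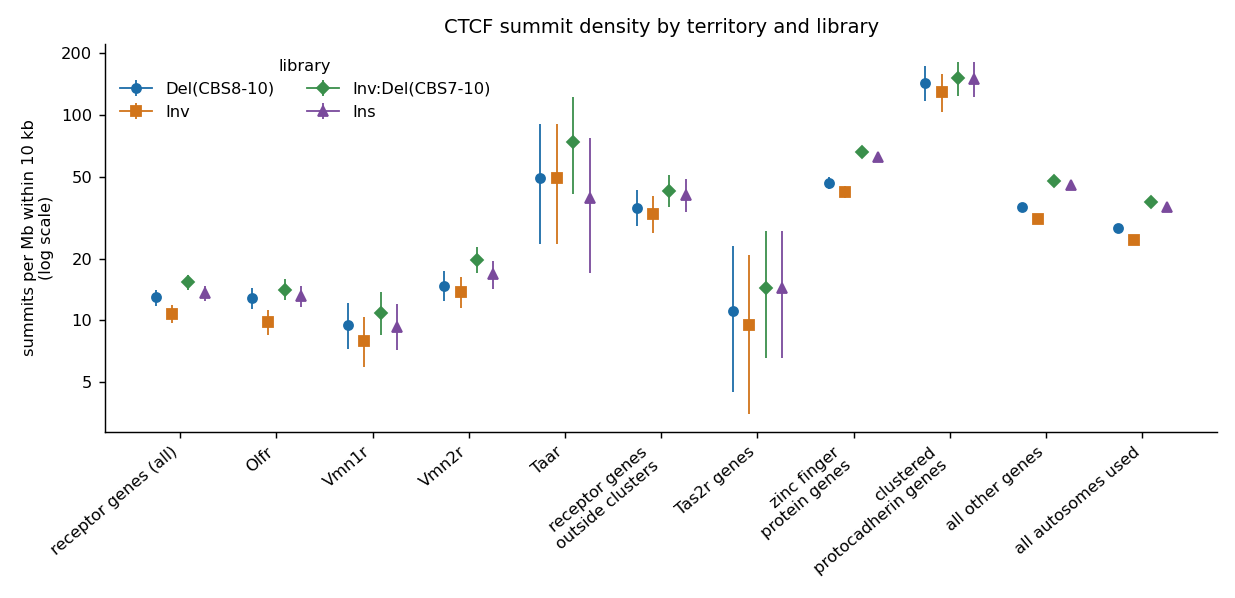
Summits per Mb (log axis) within 10 kb of the genes named on the x axis, with 1 point per library and exact Poisson 95% intervals. Receptor genes lay at 10.7 to 15.3 per Mb, below all autosomes at 24.6 to 37.6, whereas Taar genes, zinc finger protein genes and protocadherin genes lay above the autosomes in each library.

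The 3 larger families were all sparser in summits than the autosomes. Vmn1r genes had the fewest summits, at 9.47, 7.95, 10.8 and 9.32 per Mb, followed by Olfr genes at 12.8, 9.82, 14.1 and 13.1 and Vmn2r genes at 14.8, 13.7, 19.8 and 16.7. This order held in each of the 4 libraries. The counting intervals of Vmn1r and Vmn2r genes did not overlap in any library, whereas those of Vmn1r and Olfr genes overlapped in all. The Vmn2r values include 3 pseudogenes of chromosome 4 with annotated spans over 50 kb, Vmn2r-ps15, Vmn2r-ps16 and Vmn2r-ps17. Their 0.435 Mb held 33, 33, 45 and 40 of the 142, 132, 190 and 161 Vmn2r summits. Neither the order nor the intervals were computed without them, so both are stated only for the family with these 3 genes included. Relative to the autosomes the families averaged 0.302 ± 0.033 for Vmn1r, 0.399 ± 0.038 for Olfr and 0.520 ± 0.035 for Vmn2r (SD, n = 4 libraries).

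Taar genes stood on the other side of the autosomes. Their territory of 0.203 Mb held 10, 10, 15 and 8 summits, or 49.2, 49.2, 73.8 and 39.4 per Mb, which averaged 1.70 ± 0.41 of the autosome density. With so few summits the interval excluded the autosome value only in the Inv:Del(CBS7-10) library, where it ran from 41.3 to 122 per Mb.

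Other tandem families lay on either side of the autosomes. Zinc finger protein genes, symbols starting with Zfp and a digit, had 46.7, 42.3, 66.2 and 62.3 summits per Mb (1.72 ± 0.050 of the autosomes). The clustered protocadherin genes, which give neurons their surface identity, had 143, 129, 151 and 150 per Mb (4.63 ± 0.60). The Tas2r genes, the bitter taste receptors, had densities like those of the Olfr genes, at 11.1, 9.53, 14.3 and 14.3 per Mb (0.391 ± 0.010), from only 7, 6, 9 and 9 summits.

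The second question was whether cluster edges and interiors differ. Runs of at least 5 receptor genes with gaps of at most 200 kb made 55 clusters that held 1841 genes in 48.97 Mb. The remaining 106 genes lay outside. Summits were denser around the cluster ends than inside. Within 50 kb of an end, on either side, there were 29.2, 25.02, 38.7 and 35.1 summits per Mb, against 10.99, 9.68, 13.8 and 11.4 more than 50 kb inside, in the Del(CBS8-10), Inv, Inv:Del(CBS7-10) and Ins libraries. No interval of an edge overlapped that of the interior.

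Edges exceeded interiors by a ratio of 2.78 ± 0.22, a mean log2 ratio of 1.47 ± 0.11 (SD, n = 4 libraries), above 0 in 4 of 4 (two-sided exact sign-flip permutation test, p = 0.13, 0.13 adjusted over the same 4 tests). Edges as a whole were close to the autosomes, at 1.02 ± 0.020 of their density, and interiors were at 0.368 ± 0.033. The edge strip was itself uneven. Its inner 50 kb held 18.8, 14.8, 24.2 and 19.5 summits per Mb and its outer 50 kb 39.6, 35.3, 53.1 and 50.7. Receptor genes outside clusters had a density of 1.22 ± 0.094 of that of the autosomes, but this rested on 3 pseudogenes of chromosome 4 with annotated spans over 50 kb, Vmn2r-ps15, Vmn2r-ps16 and Vmn2r-ps17. They were the nearest receptor gene for 65 of the 183 summit positions outside clusters, and 41 of the 65 lay inside another annotated gene. Without these 3 genes the ratio was 0.933 ± 0.083, and without all 6 Vmn2r pseudogenes of that run 0.897 ± 0.069, both chosen after seeing the data.

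Density was lowest deep inside the clusters. Averaged over the libraries, the first 50 kb inside held 19.3 ± 3.9 summits per Mb, the 4 bins from 50 to 250 kb held 14.9 to 17.1, and sequence more than 250 kb inside held 8.47 ± 1.4. Only clusters longer than 500 kb reach that last part, so depth and cluster length cannot be told apart there. Outside the clusters, bins out to 250 kb held 40.9 to 51.3. The share of sequence within 10 kb of a protein-coding gene other than a receptor moved along with this profile: it was 51.1% in the 50 kb outside the ends, 9.91% in the first 50 kb inside and 4.49% beyond 250 kb.

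Edges exceeded interiors also in narrower counts. Away from other protein-coding genes, edges, with their strips outside the clusters, had 2.19 ± 0.12 times the density of interiors. Counted only within receptor territory, with other genes kept, edges had 2.35 ± 0.18 times the density of interiors. The part of neighbouring genes in the edge contrast was not tested. Within the interiors, sequence near other protein-coding genes had 2.52 ± 0.30 times the density of the rest, and at the edges 2.303 ± 0.36 times.

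**Figure D2:**
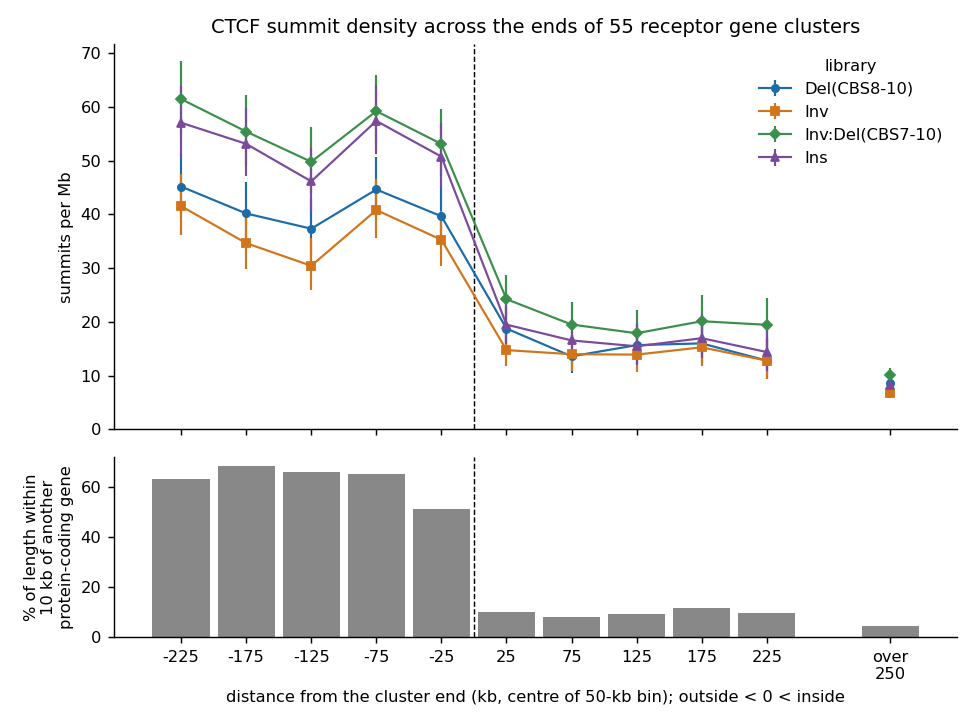
Top, summits per Mb in 50-kb bins by distance from the ends of 55 receptor clusters (negative outside, positive inside, last point over 250 kb inside), with a line per library and exact Poisson 95% intervals. Bottom, share of each bin within 10 kb of another protein-coding gene. Mean density dropped to 19.3 per Mb in the first bin inside, against 44.7 in the last bin outside, while that share dropped to 9.91%, against 51.1%.

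Taken one at a time, 46 of the 55 clusters were below the autosome density in all 4 libraries, 4 were above it in all 4, and 5 were on both sides. Windows of like length elsewhere on the autosomes were not counted, so the share of them below that density is not known. All 15 clusters of at least 1 Mb were below it in every library. Each of the 55 had a summit in at least 1 library. Pooled by length, clusters of at least 1 Mb had 0.313, 0.307, 0.285 and 0.256 of the autosome density in the Del(CBS8-10), Inv, Inv:Del(CBS7-10) and Ins libraries. Clusters from 500 kb to 1 Mb had 0.589, 0.586, 0.571 and 0.502, and shorter ones 0.535, 0.539, 0.535 and 0.403.

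The longest cluster ran from Olfr987 to Olfr1274 on chromosome 2, with 293 genes in 5071 kb. It held 42, 27, 47 and 48 summits, or 8.09 ± 1.91 per Mb (SD, n = 4 libraries), which was 0.216 to 0.293 of the autosome density. Among clusters of at least 10 genes, the emptiest was another on chromosome 2, from Olfr1275 to Olfr1319-ps1, where 47 genes in 937 kb had 0, 2, 2 and 1 summits. The next was Olfr172 to Olfr209 on chromosome 16, with 32 genes in 602 kb and 1, 1, 2 and 1 summits. After it came 81 Vmn1r genes from Vmn1r91 to Vmn1r166 on chromosome 7, with 10, 14, 11 and 6 summits in 3151 kb. These 3 clusters had 0.043, 0.065 and 0.110 of the autosome density on average.

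Long stretches had no summit in any library. The median over the clusters of the longest such stretch was 158 kb, and 2 clusters had one of at least 500 kb. Empty stretches elsewhere on the autosomes were not measured, so these lengths are not shown to be particular to receptor clusters. The longest was 831 kb on chromosome 17, in the cluster from Vmn2r124 to Vmn1r-ps150, and held 12 receptor genes. The other was 510 kb on chromosome 2, in the Olfr1275 cluster, and held 19.

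The densest cluster of at least 10 genes was the Taar cluster on chromosome 10, at 47.6 ± 14.3 summits per Mb. It was followed by 15 Olfr genes from Olfr62 to Olfr1328 on chromosome 4, at 35.3 ± 11.1, and 13 Vmn2r genes from Vmn2r8 to Vmn2r-ps23 on chromosome 5, at 29.2 ± 5.5. Besides the Taar cluster, the clusters above the autosome density in all 4 libraries were small, and they are named here after their values were seen. They were 8 genes from Olfr70 to Olfr155 on chromosome 4, at 2.72 times the autosome density, and the runs from Vmn2r-ps95 to Vmn2r-ps100 and from Vmn2r-ps102 to Vmn2r-ps109 on chromosome 13, at 2.01 and 2.43 times. These 3 held 2, 4 and 6 other protein-coding genes, or 12.5, 6.72 and 8.83 per Mb. The Taar cluster held 0.

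**Figure D3:**
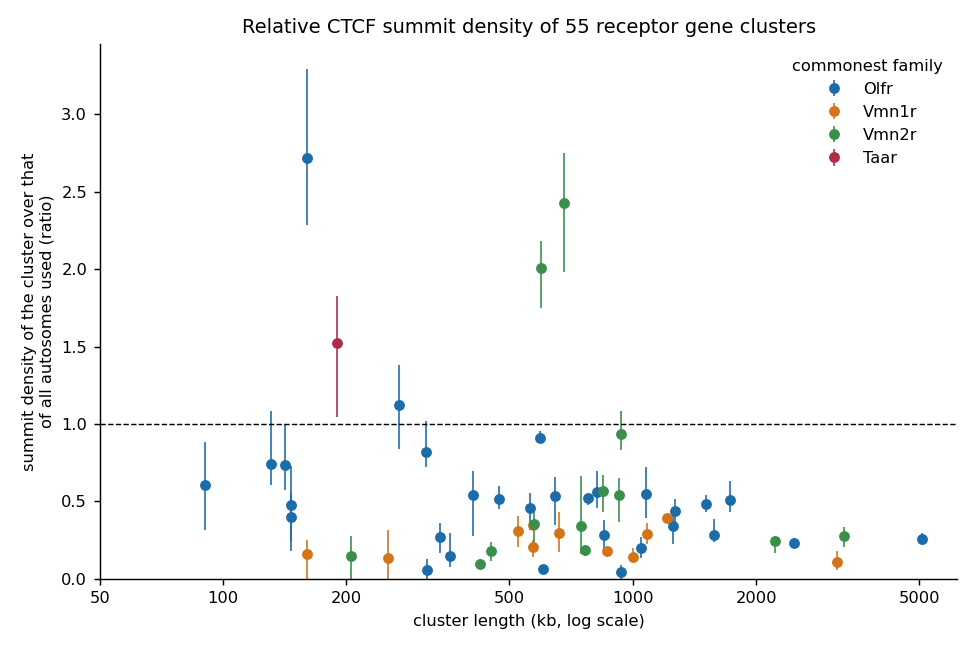
Summit density of each of 55 receptor clusters as a ratio to all autosomes of the same library, against cluster length (log axis). Points are means and bars the range over 4 libraries, coloured by the commonest family. The 15 clusters of at least 1 Mb all lay below 1, and 4 clusters lay above 1 in every library.

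The third question was how strong the receptor summits are. Strength was read as the percentile of a peak's −log10 q, the authors' value, within its own list. By that measure receptor summits ranked below the middle of each list. Their median percentile was 39.1, 45.2, 47.6 and 46.9 in the Del(CBS8-10), Inv, Inv:Del(CBS7-10) and Ins libraries, an average of 5.30 ± 3.87 points under 50 (two-sided exact sign-flip permutation test, p = 0.13, 0.13 adjusted over 4 tests), lower in 4 of 4. The Del(CBS8-10) library had the largest difference, and without it the average was −3.43 points. By the authors' fold the order was not the same in every library. The median fold of receptor summits was 6.44, 8.08, 9.51 and 8.61, against 7.87, 8.59, 9.24 and 8.61 for all summits, so it was lower in the Del(CBS8-10) and Inv libraries, higher in the Inv:Del(CBS7-10) library and equal in the Ins library. By percentile, all summits in cluster interiors, near a receptor gene or not, had medians of 32.9, 36.6, 41.3 and 43.5. All summits at edges, with the strips outside the clusters, had 52.8, 52.0, 50.2 and 51.6. In the Del(CBS8-10) library 274 of the 478 interior summits and 108 of the 321 edge summits lay within receptor territory. Medians for those alone were not computed.

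Strong peaks by −log10 q were underrepresented. The share of receptor summits in the strongest decile of the list was 3.53%, 5.50%, 6.64% and 4.55%, and in the strongest quintile 10.58%, 13.0%, 14.3% and 14.1%, with every upper Wilson 95% bound of the quintile shares below 20 (13.6%, 16.7%, 17.4% and 17.4%). In the weakest quintile the share was 30.7% in the Del(CBS8-10) library (interval 26.8% to 34.96%), where all summits had 20.6%, and 20.5%, 23.4% and 21.8% in the others. Within families, Vmn2r summits had median percentiles of 36.5, 41.5, 43.8 and 41.6 and Olfr summits 42.2, 47.0, 52.5 and 51.1. Vmn1r summits had 30.6, 50.5, 42.2 and 44.2.

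The fourth question was how many receptor summits are shared. A summit counted as shared when every other list had one within 100 bp. That held for 49.2%, 59.3%, 41.4% and 47.1% of receptor summits in the Del(CBS8-10), Inv, Inv:Del(CBS7-10) and Ins libraries, against a background of 59.8, 68.6, 45.2 and 47.8% of all summits on the autosomes used. The difference averaged −6.10 ± 4.70 percentage points and was only −0.638 points in the Ins library. With the Del(CBS8-10) list left out of the matching as well, a summit needed a match in fewer lists to count as shared. The average was then −3.58 points, and 1 of the other 3 libraries had a difference above 0 by that changed measure. The shared receptor summits are nearly the same sites in each list, 237 or 238 of them, so the 4 differences are not separate measurements and no test over them is given.

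Sharing followed strength. In the strongest quintile 96.1%, 98.1%, 98.8% and 98.6% of receptor summits were shared, and in the weakest 4.73%, 23.2%, 1.49% and 4.55%. All summits, weighted to the strengths of the receptor summits, were shared in 50.5%, 65.7%, 41.8% and 43.9% of cases. The receptor shares differed from these by −1.30, −6.49, −0.41 and 3.22 points. Only in the Inv library did the Wilson interval of the receptor share (54.4% to 64.0%) leave out the value at like strength, and the sign of the difference was not the same in all libraries.

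Pooled over the libraries there were 882 receptor positions, of which 394 were found in 1 library, 137 in 2, 113 in 3 and 238 in all 4. The last are 27.0% (Wilson interval 24.2% to 30.0%), against a background of 33.0% of 119359 positions on the autosomes used. By place, 29.2% of 192 edge positions within receptor territory, 24.3% of 507 interior positions and 32.2% of 183 positions outside clusters were in all 4. By family, 137 of 459 Olfr, 27 of 116 Vmn1r, 68 of 290 Vmn2r and 6 of 17 Taar positions were.

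**Figure D4:**
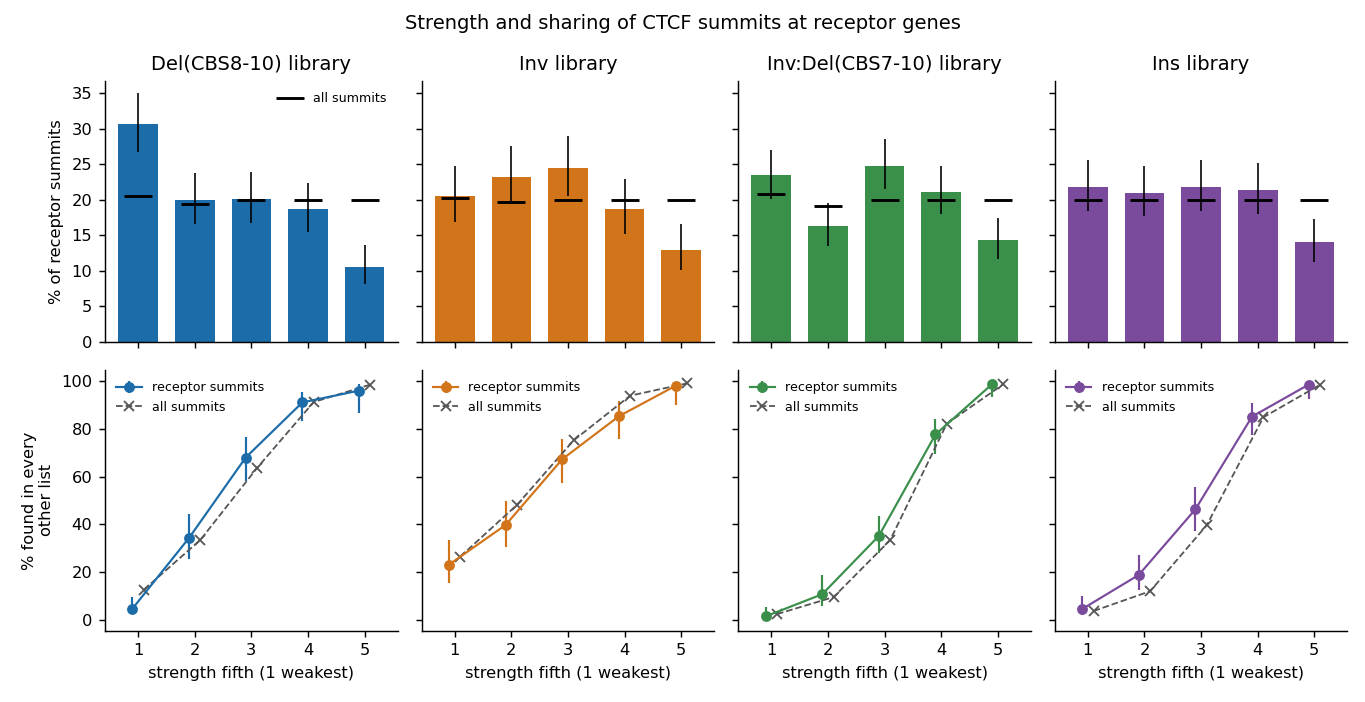
Top, share of receptor summits in each strength quintile of the list (1 weakest) in each library, with Wilson 95% intervals, and black marks for all summits. Bottom, share of receptor summits (circles) and of all summits (crosses) found in every other list, by quintile. The strongest quintile held 10.58% to 14.3% of the receptor summits, and at least 96.1% of those were shared.

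Of the 10 strongest sites shared by all libraries, 3 lay at cluster edges, 4 outside clusters and 3 in interiors. Values here are the −log10 q of the authors' lists, in the Del(CBS8-10), Inv, Inv:Del(CBS7-10) and Ins libraries. The site with the highest mean percentile, 99.5, lay at chromosome 15, 98504669, at the edge of a cluster and 5198 bp from the pseudogene Olfr278-ps1, with 102, 105, 441 and 222. The next lay within the span of the pseudogene Vmn2r-ps98 on chromosome 13, at 65781709, with 96.1, 103, 475 and 211. A site within Vmn2r-ps16 on chromosome 4, at 146483707 and outside the clusters, followed with 95.2, 81.9, 581 and 184. All 3 were above the 98th percentile of every list.

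The remaining sites had mean percentiles between 93.4 and 97.2. Olfr750 on chromosome 14 had a pair of them outside the clusters, at 51063468 (76.6, 86.8, 257 and 130) and 51069805 (60.2, 45.0, 233 and 122). Olfr1410 on chromosome 1 (48.7, 76.3, 277 and 129) and Olfr1513 on chromosome 14 (42.4, 85.5, 322 and 138) had theirs at cluster edges. Vmn2r-ps20 on chromosome 4 had one outside the clusters (68.8, 49.3, 265 and 136). In cluster interiors stood Vmn1r-ps149 on chromosome 17 (56.1, 73.8, 232 and 111) and Taar6 on chromosome 10 (78.9, 45.6, 189 and 146). Vmn1r1 on chromosome 1, a protein-coding vomeronasal receptor gene, also had a strong shared site at 182150176 in the Ins library (39.1, 44.9, 288 and 103).

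Of the 4 clusters above the autosome density in every library, the Taar cluster was the one without other protein-coding genes, and its positions are given in more detail. Pooled over the libraries, the 0.203 Mb within 10 kb of the Taar genes held 17 positions, of which 6 were in all 4 libraries. The strongest, at 23979526, lay between Taar5 and Taar6, 5083 bp from Taar6. In mice Taar5 encodes the receptor for trimethylamine. A site 1097 bp from Taar2 had a −log10 q of 13.2, 9.68, 232 and 97.6 and stood at percentiles 51.5, 41.4, 94.5 and 90.4, so its rank varied between lists. At the other end of the cluster, a site 1782 bp from Taar9, the last gene, had 37.2, 31.7, 210 and 77.9, and one 2811 bp from Taar8a had 26.0, 25.4, 83.9 and 55.5. The sites nearest Taar7d (6.11, 15.3, 15.5 and 1.65) and Taar7e (6.35, 7.65, 29.0 and 11.1) were lower, at or below percentile 56.5 in every list.

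Some receptor summits were found in a single library. There were 121, 56, 125 and 91 receptor summits without a match in any other list, or 25.1%, 14.0%, 21.9% and 18.0% of the library's receptor summits, against 13.4%, 9.97%, 20.7% and 17.4% of all its summits on the autosomes used. The Wilson interval of the receptor share left out the background in the Del(CBS8-10) and Inv libraries and held it in the other two. The strongest of these lay near Vmn1r46 on chromosome 6 in the Del(CBS8-10) library (−log10 q 12.2), near Vmn2r63 on chromosome 7 in the Inv library (12.7) and near Olfr1312 on chromosome 2 in the Inv:Del(CBS7-10) library (58.1). Their percentiles were 49.3, 50.1 and 66.8.

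The Ins library held an exception. Its strongest receptor summit, at 19575475 on chromosome 9 between Olfr854 and Olfr855, had a −log10 q of 339 and a fold of 41.3, at percentile 99.9, and was in no other list. The peak ran from 19575334 to 19575612. The nearest summit was 144 kb away in the Del(CBS8-10) library, 27.4 kb in the Inv library and 46.5 kb in the Inv:Del(CBS7-10) library. Of the 811 Ins summits in the strongest 1% of its list, 9 were in no other list, and this was the only one at a receptor gene. With 1 library per genotype, a difference between lines and a difference between libraries cannot be told apart.

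Counted by gene, few receptors had CTCF nearby. A summit lay within 10 kb of 426, 355, 468 and 414 of 1947 receptor genes in the Del(CBS8-10), Inv, Inv:Del(CBS7-10) and Ins libraries, or 21.9%, 18.2%, 24.0% and 21.3%. The background over 43670 genes was 66.3, 62.9, 71.5 and 70.4%. A summit in all 4 libraries was found for 253 receptor genes (13.0%), against 57.8% of all genes, and 1310 (67.3%) had none in any, against 22.6% of all genes. Neighbouring receptors share summits, so these genes are not independent.

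Most receptor genes are short, and among genes of 500 to 2000 bp the difference was smaller but of the same direction. Receptors of that length had a summit in 20.6%, 16.3%, 21.6% and 19.0% of cases, and 7349 other genes in 47.4%, 43.5%, 54.3% and 52.2%. These receptors were 1475 of the 1947. Many Vmn2r genes, whose median annotated length was 16090 bp, were not among them. By family, a summit in all 4 libraries was found for 165 of 1315 Olfr genes (12.5%), 29 of 366 Vmn1r genes (7.92%), 48 of 250 Vmn2r genes (19.2%) and 11 of 16 Taar genes (68.8%). Of receptor genes outside clusters 39 of 106 (36.8%) had one in all 4, and of those in clusters 214 of 1841 (11.6%).

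Other chemosensory genes were listed for comparison. Of 18 genes of olfactory transduction and olfactory neurons, 17 (94.4%) had a summit within 10 kb in all 4 libraries, against 57.8% of all genes. Gene length was not matched for these lists. The 17 include Gnal, which encodes the G protein subunit of odorant signalling (−log10 q 47.7, 53.5, 316 and 113), and Adcy3, its adenylyl cyclase (28.9, 38.8, 109 and 65.2). Lhx2 (54.1, 53.2, 253 and 126) and Ldb1 (91.9, 81.6, 212 and 122) encode a transcription factor and its partner that bind receptor enhancers in olfactory neurons. Lbr, which encodes the lamin B receptor, had 10.22, 16.1, 95.2 and 43.9. Rtp1, a chaperone that carries odorant receptors to the cell surface, had 1.51, 11.9 and 13.2 in the Del(CBS8-10), Inv:Del(CBS7-10) and Ins libraries and no summit in the Inv library.

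Of 19 genes listed as vomeronasal, 10 (52.6%) had a summit in all 4 libraries, near the 57.8% of all genes. None was found for 7 (36.8%, Wilson interval 19.1% to 59.0%), against 22.6% of all genes, which that interval holds. Trpc2, the transduction channel of vomeronasal neurons, had 29.9, 23.5, 169 and 68.9, and the G protein genes Gnai2 and Gnao1 had 66.4, 68.0, 222 and 168 and 17.0, 16.8, 82.7 and 32.5. The 7 without a summit in any library were Fpr1, Fpr-rs3, Fpr-rs4, Fpr-rs6 and Fpr-rs7, which encode formyl peptide receptors, and H2-M9 and H2-M10.4, which encode non-classical major histocompatibility molecules. Other members of the same families did have one in all 4 libraries, namely Fpr3, H2-M10.2, H2-M10.3, H2-M10.5 and H2-M10.6, the last with 88.3, 34.0, 262 and 161. Of 43 taste receptor genes, 6 (14.0%) had a summit in all 4 libraries and 25 (58.1%) in none. All 3 Tas1r genes, the sweet and umami receptors, were among the 6, with Tas1r1 at 40.3, 27.0, 237 and 113.

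**Figure D5:**
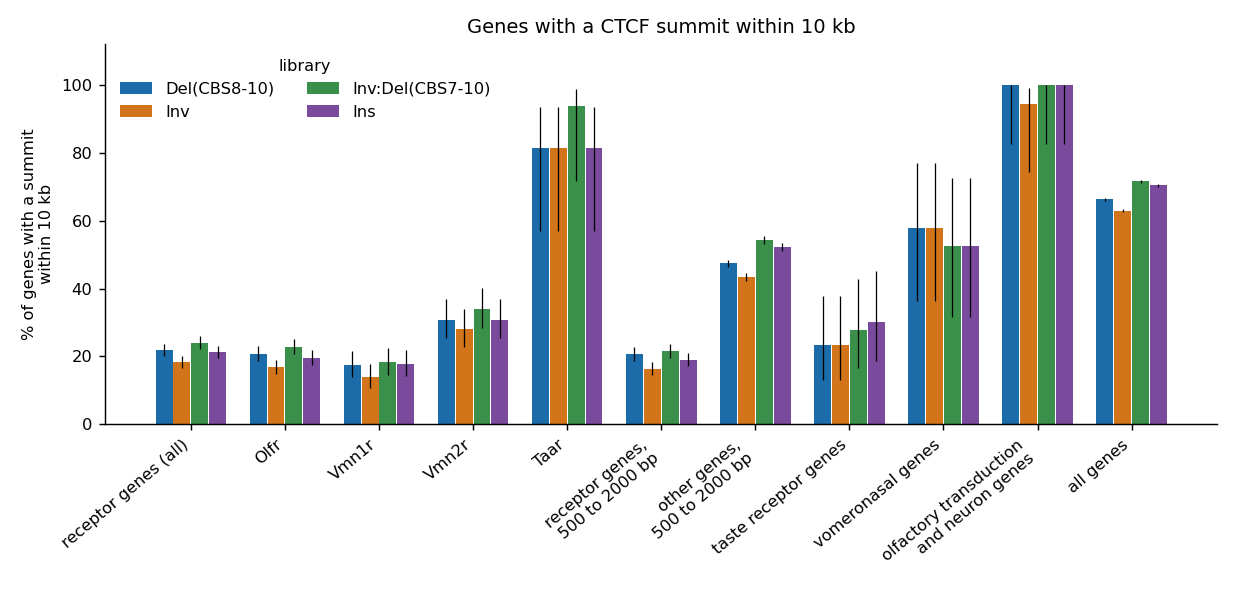
Share of genes with a summit within 10 kb in each library, by gene set, with Wilson 95% intervals. Receptor genes lay at 18.2% to 24.0% and all genes at 62.9% to 71.5%, whereas Taar genes lay at 81.2% to 93.8% and olfactory transduction genes at 94.4% to 100.0%.

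The last comparison was at the promoters, where the Vmn2r29 sequences printed above belong. Of 1203 receptor promoter windows, from 1199 genes, 2, 1, 2 and 1 held a summit in the Del(CBS8-10), Inv, Inv:Del(CBS7-10) and Ins libraries. The background was 11.0, 13.3, 16.5 and 17.9% of 29107 windows. The upstream Vmn2r29 window, the one held in all 4 lists, had a −log10 q of 45.9, 46.7, 134 and 87.1. The second window was that of Vmn2r31 on chromosome 7, in the Del(CBS8-10) library alone and weak (3.26). The third was that of the pseudogene Olfr1532-ps1 on chromosome 7, in the Inv:Del(CBS7-10) library alone (36.7). No Vmn1r or Taar window held one, of 206 and 11.

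Receptor promoter windows also differed in sequence from the other windows. All windows were placed on annotated gene starts. The median annotated length was 945 bp for Olfr genes and 921 bp for Vmn1r genes. Whether these annotated starts are starts of transcription was not checked. The motif core was matched in 4 receptor windows (0.333%, Wilson interval 0.129% to 0.852%), against 2.42% of all windows and 10.198% of 2177 other windows that held a summit in all 4 libraries. The median G or C content was 35.7% in receptor windows and 53.3% in all other windows. The median number of CpG dinucleotides was 1 in receptor windows and 8 in all other windows. The part of base composition or of the match in the low number of summits was not tested, and the sequence under summits away from promoters was not used here. The window of Vmn2r31, with 36.7% G or C and 0 CpG, was 94.4% identical to the downstream Vmn2r29 window, which held no summit.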

How the data were processed

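CTCF CUT&RUN was done on 4 mESC lines, 1 library per genotype, and each deposited list holds the peaks of 1 library. Per the submitters' processing notes, the build was mm10, MACS2 2.2.7.1 was among the tools, and Bowtie2 2.4.5, cutadapt 4.1, bedtools 2.30.0 and Picard were the others. Settings, read filters, any control library and the treatment of reads matching several near-identical receptor genes were not stated in the sources used here. Read depth was not stated either, so the precision stated is that of the numbers of summits.

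The deposited score, a whole number per peak, was not used in any result. The deposited −log10 q-value, fold and −log10 p-value are the authors' own for each peak, and the fold sets the summit's pileup over local background. No region of high unspecific signal was filtered out.

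Summits, printed counted from 1, were placed against genes of the RefSeq GRCm38.p6 table, the same assembly as mm10, in Python 3.11.15 (pandas 2.3.3, NumPy 2.4.6, SciPy 1.17.1), with plots made in Matplotlib 3.10.9. Chromosome 11, of which the authors' genome holds an edited pair, and X, Y and M were left out. Genes with coordinates before the first summit of any list (285 genes, 8 of them receptors) were left out as unplaced. All listed genes of the other chemosensory lists were found in the table (18, 19 and 43). Densities carry exact Poisson and shares Wilson intervals, both at 95% and for counting error only. The 4 log2 ratios or differences per result were tested with exact sign-flip permutation over libraries, adjusted over 4 tests. The test of the shared fraction is not reported, since the lists share the sites it counts. Counting was tested on simulated summits.

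Named are the 3 genes per family that rank first by −log10 q among Ins summits, the 10 strongest sites shared by all libraries, the densest, emptiest and longest clusters of at least 10 genes, receptor promoters with a summit in every library, the strongest site private to each library, and listed genes without any summit where these were at most 10. The members, lists and tests were chosen with earlier results of these data known.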

Additional observations from a re-analysis of the deposited data

How the results depend on the processing

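No direction of the 4 tested results was reversed under any alternative run, and no alternative could give an exact p under 0.13. The mean log2 ratio to the autosomes of receptor genes outside clusters, 0.28 as reported, turned to −0.10 without the 3 genes of a span over 50 kb and −0.16 without the Vmn2r pseudogenes of chromosome 4. The mean log2 ratio of receptor to autosome density, −1.25 as reported, became −1.38 with a −log10 q of at least 10 and −1.68 with the 20000 strongest peaks of each list. It became −0.77 within 50 kb of a gene, −1.54 with protein-coding receptors only and −1.60 over the territory of other genes. The mean log2 ratio of edges to interiors, 1.47 as reported, became 1.83 with a −log10 q of at least 10, 2.23 with the 20000 strongest peaks, 1.59 with cluster gaps of up to 100 kb and 1.07 with gaps of up to 500 kb. It became 1.59 with edges of 100 kb, 0.74 with the inner 50 kb of the edges only, and 1.23 within receptor territory only, an alternative chosen after seeing the data. The median strength percentile minus 50, −5.30 as reported, became −10.1 with the 20000 strongest peaks. The other 5, 5 and 8 alternatives of these results, and all 11 of the shared fraction, stayed within 1 SD over libraries of the reported value. Without the Inv library, whose list is the shortest, the 4 results were −1.27, 1.51, −5.48 and −6.88, and without the Del(CBS8-10) library, added after seeing the data, −1.29, 1.49, −3.43 and −3.58. For the shared fraction, the library left out was also left out of the matching. The cause of the shifts above was not tested. No paired analysis was possible because each genotype has 1 library and the labels give no replicate numbers. The number of summits limits small territories most: 8 to 15 per library at Taar genes and 6 to 9 at Tas2r genes.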

Other observations

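The receptor clusters also enclose other gene families. The beta-globin genes (Hbb), which encode the beta chains of haemoglobin, lie inside a run of odorant receptor genes on chromosome 7, and 6 of them were used here. Within 10 kb of their span there were 1, 1, 2 and 1 summits in the Del(CBS8-10), Inv, Inv:Del(CBS7-10) and Ins libraries, with a highest −log10 q of 34.6, 35.3, 177 and 49.2. None of these summits was within 10 kb of a receptor gene.

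Receptor summits seldom lay in the promoter of another gene. Of the 482, 400, 572 and 505 receptor summits, 10, 12, 13 and 17 did (2.07%, 3.0%, 2.27% and 3.37%), of which 6, 6, 5 and 7 were at promoters of zinc finger protein genes. Of all summits on the autosomes used, 4.29%, 5.84%, 4.80% and 5.52% lay in such a promoter. No hypothesis was drawn from these values.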
